A study of Mus musculus with 9 samples.

Results

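The genes of the cyclin-dependent kinase (CDK) inhibitors are 8 of the 24493 gene rows measured by RNA sequencing in a mouse pancreatic tumor cell line, and they were chosen by symbol. Cdkn1a, Cdkn1b and Cdkn1c make up the Cip/Kip family, 3 genes, and Cdkn2a, Cdkn2b, Cdkn2c and Cdkn2d the INK4 family, 4 genes. Cdkn3 belongs to neither and codes for a phosphatase that acts on CDKs. The cells were 6620c1, a line for which the labels give no genotype and the table's column names only an unexplained WT, sampled at day 0, day 2 and day 14, with 3 libraries at each day. All 9 samples carry the same culture entry, for a medium that stands for lack of nutrients and oxygen. It was DMEM with 2.5 mM glucose and 0.5% fetal calf serum, and its amino acids were cut to 20% of the standard. The labels state that nothing else was added. They do not say which medium the day 0 cells stood in, at what oxygen level any cells were kept, or whether replicates came from separate cultures. P-values therefore reflect only how far these samples spread, and that spread may be technical. Only 1 cell line was used, and since no time-matched culture without deprivation was analysed here, the part of deprivation and that of time cannot be told apart.

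Cell division is driven by CDKs, which work only when bound to a cyclin. INK4 proteins bind the kinases CDK4 and CDK6 and keep them from their D-type cyclins, so that the retinoblastoma protein stays active and holds back entry into DNA replication. Cip/Kip proteins bind whole cyclin-CDK complexes and block those of CDK2 in particular. Loss of the Cdkn2a locus is a common event in pancreatic cancer. Cells that stop dividing for lack of nutrients or oxygen are known to use inhibitors of both families, many of which are set by protein turnover as well as by mRNA level, and only mRNA was measured here.

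Values were TPM, a length-corrected abundance that the authors brought to a common total in each library. Read totals cannot be had from TPM, so sequencing depth is unknown. Rows at 1 TPM or more numbered 11569 to 11633 in day 0 libraries, 12033 to 12085 at day 2 and 12595 to 12717 at day 14. The row Mir6236 took 22.5% of all TPM in day 2 replicate 3, and 8.27% to 14.6% in the other 8 libraries. Of 6 markers of ductal and tumor epithelium, all but Epcam averaged over 1 TPM on each day, and Epcam averaged under 1 TPM at day 2. The sums ran over ranges of 10785 to 11441 TPM at day 0, 5456 to 7572 TPM at day 2 and 6786 to 8543 TPM at day 14. Pdgfrb and Lum, of fibroblasts, and Lyz2 and Cd3e, of leukocytes, were at 0 in every day 0 and day 2 library. Each of these 4 was above 0 in at least 1 day 14 library. Summed fibroblast markers ran from 0.205 to 0.273 TPM at day 0, from 1.03 to 3.12 TPM at day 2 and from 0.720 to 1.65 TPM at day 14. Pdgfra alone of the 7 fibroblast markers averaged over 1 TPM, and only at day 2, where it was the largest part of the fibroblast sum. Summed endothelial markers ran from 0 to 0.115 TPM at day 0, from 0.0283 to 0.346 TPM at day 2 and from 0.677 to 1.13 TPM at day 14. Of the 6 leukocyte markers only Cd14 and Cd68 averaged over 1 TPM on any day. The leukocyte sum ran from 52.6 to 70.2 TPM at day 0, from 27.8 to 59.4 TPM at day 2 and from 70.7 to 141 TPM at day 14. The part of these shifts in the results was not tested. In these bulk samples, fewer cells that express a gene and less of its RNA per cell cannot be told apart.

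All 8 inhibitor genes passed the expression filter of at least 1 TPM in at least 3 libraries, Cdkn1c only through its values at day 2 and day 14. Fold changes below come from limma on the log2(TPM + 1) scale, fitted to the 12693 genes past the filter, and "rose" and "fell" are used at a Benjamini-Hochberg adjusted p under 0.05. This scale understates the change of low genes such as Cdkn1c.

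**Figure D1:**
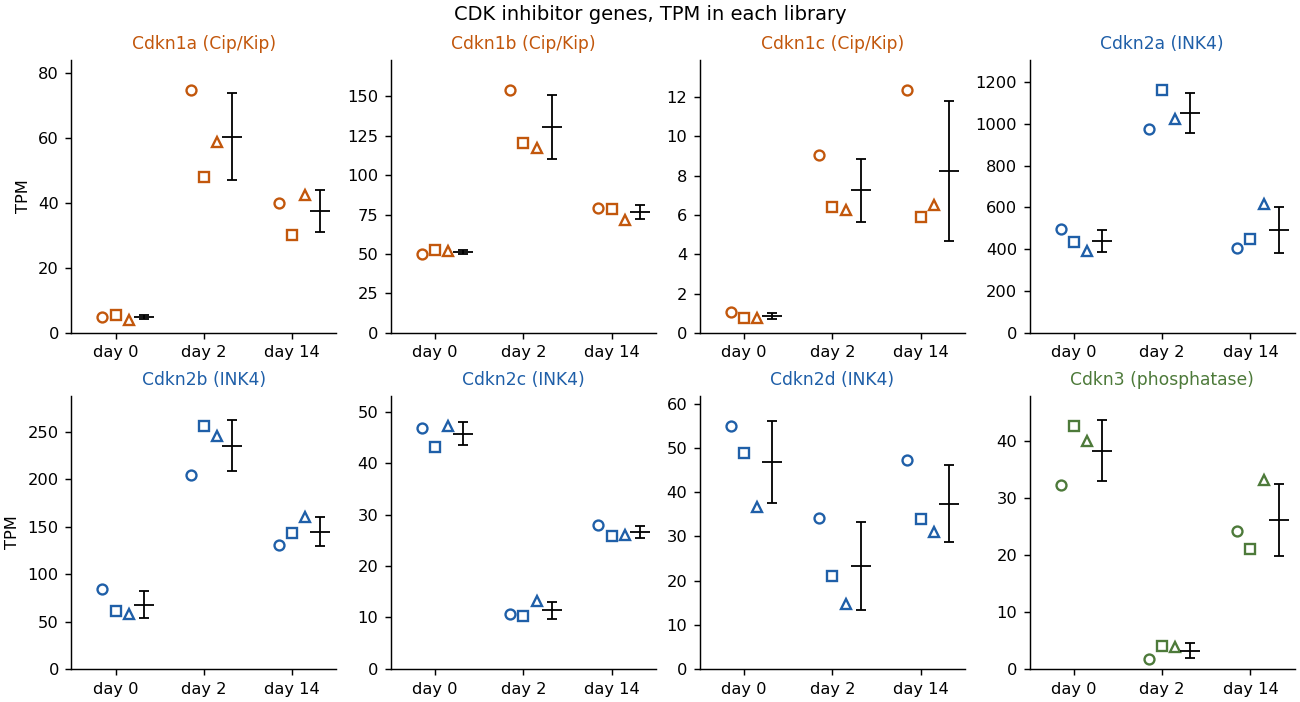
TPM of the 8 CDK inhibitor genes in each library at day 0, day 2 and day 14, with a separate vertical axis from 0 for each gene. Circles are replicate 1, squares replicate 2 and triangles replicate 3, and the black bar is the mean ± SD (n = 3). Cdkn1a, Cdkn1b, Cdkn2a and Cdkn2b stood highest at day 2, Cdkn2c and Cdkn3 lowest, and Cdkn1c stayed near its day 2 level at day 14.

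The comparison of day 2 with day 0 asked how the inhibitor genes stood after 2 days in the deprivation medium. The Cip/Kip genes moved in the same direction and the INK4 genes did not. All 3 Cip/Kip genes rose, while the INK4 genes split into Cdkn2a and Cdkn2b, which rose, and Cdkn2c and Cdkn2d, which fell, and Cdkn3 fell. Thus 5 of the 8 genes rose and 3 fell, or 4 and 3 of the 7 other than Cdkn1c, where 27.1% of all tested genes rose and 31.9% fell, 59.0% in all.

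Cdkn1a, which codes for Cip1, the inhibitor best known as a target of p53, had 4.81, 5.34 and 4.10 TPM at day 0, 74.5, 47.8 and 58.7 TPM on day 2 and 39.98, 30.02 and 42.4 TPM at day 14. Every day 2 and day 14 library stood above every day 0 library. The mean at day 2 was 60.3 ± 13.4 TPM, against 4.75 ± 0.624 TPM at day 0 (mean ± SD, 3 libraries), a ratio of 12.7 and a log2 fold change of 3.40 (limma, SE 0.19, adjusted p = 1.24e-06), the largest rise among the 8 genes. Cdkn1b, for Kip1, the inhibitor that accumulates in quiescent cells, had 49.9, 52.4 and 52.2 TPM at day 0, 154, 121 and 117 TPM on day 2 and 79.4, 78.8 and 71.6 TPM at day 14. The days did not overlap. Its log2 fold change at day 2 against day 0 was 1.31 (limma, SE 0.12, adjusted p = 1.83e-05). Cdkn1c, for Kip2, an imprinted inhibitor of the developing embryo, had 1.05, 0.780 and 0.733 TPM at day 0, 9.07, 6.40 and 6.27 TPM on day 2 and 12.3, 5.91 and 6.49 TPM at day 14. It was the lowest of the 8 genes at day 0, and its day 14 values overlapped those of day 2. At day 2 against day 0 its log2 fold change was 2.14 (limma, SE 0.25, adjusted p = 9.34e-05), 2.94 with a pseudocount of 0.1 and 1.06 with one of 5, past the threshold each time. Since Cdkn1c entered the test through the days at which it was high, its call is not independent of the filter. It passed in the fit with no filter as well.

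Cdkn2a, the INK4a locus, had 497, 433 and 393 TPM at day 0, 976, 1160.4 and 1025 TPM on day 2 and 405, 451 and 615 TPM at day 14. It was the most abundant inhibitor mRNA in every library, and its day 2 libraries stood above all others while day 14 and day 0 overlapped. The gene makes both INK4a and ARF, a protein that stabilises p53, from separate first exons, and the row sums its transcripts, so the share of each was not measured. Cdkn2a rose at day 2, to a mean of 1054 ± 95.6 TPM against 441 ± 52.7 TPM at day 0 (mean ± SD, 3 libraries), a log2 fold change of 1.26 (limma, SE 0.16, adjusted p = 0.000153). Its neighbour Cdkn2b on chromosome 4, which codes for INK4b, an inhibitor induced by TGF-beta, had 84.4, 61.03 and 58.1 TPM at day 0, 205, 256 and 245 TPM on day 2 and 130.5, 143 and 161 TPM at day 14. The days did not overlap, and the log2 fold change at day 2 was 1.79 (limma, SE 0.16, adjusted p = 1.72e-05).

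Cdkn2c, for INK4c, had 46.9, 43.2 and 47.1 TPM at day 0, 10.6, 10.3 and 13.3 TPM on day 2 and 28.03, 25.8 and 25.98 TPM at day 14. The days were well apart, with the smallest relative spread between replicates of any INK4 gene at day 0 and day 14. It fell at day 2 by 1.92 on the log2 scale (limma, SE 0.12, adjusted p = 1.99e-06), to 0.249 of its day 0 mean. Cdkn2d, for INK4d, had 54.9, 48.9 and 36.7 TPM at day 0, 34.2, 21.1 and 14.7 TPM on day 2 and 47.3, 33.9 and 31.1 TPM at day 14. The day 2 values lay below those of day 0 by a narrow margin and overlapped those of day 14. Cdkn2d fell at day 2 by 1.03 on the log2 scale (limma, SE 0.29, adjusted p = 0.0122), the weakest call of the 8. Cdkn3, whose phosphatase removes the activating phosphate of CDK2 and whose mRNA is known to follow the cell cycle, had 32.3, 42.6 and 40.1 TPM at day 0, 1.78, 4.10 and 3.82 TPM on day 2 and 24.2, 21.02 and 33.1 TPM at day 14. It was the lowest of the 8 genes at day 2, and its day 14 values overlapped those of day 0. The fall at day 2 was 3.26 on the log2 scale (limma, SE 0.25, adjusted p = 7.88e-06).

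The calls of all 8 genes at day 2 against day 0 held under the 20 alternative settings, the omission of each library in turn included. The weakest, that of Cdkn2d, had adjusted p-values from 0.000735 to 0.0448 over them. Without day 2 replicate 3, the library with the largest Mir6236 share, 5 genes rose and 3 fell, as they did without the 20 most abundant rows.

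Promoter sequence from RefSeq (build GRCm38.p6) was available for 7 of the 8 genes, in 10 windows that run from 250 bases before a start site to 50 bases after it. The build behind the deposited values is not given in the sources used here. Windows of the genes that moved most or against their family are shown, 5′ to 3′ on the gene's strand, with every match to a searched motif in capitals. Motifs were searched on both strands as exact letters: GTAAACA (FOXO), TTTGAA (the cell cycle homology region, CHR), TTCCCGC and TTGGCGC (E2F), GGGCGG (SP1), CACGTG (E-box), ACGTG (hypoxia response core, which also lies inside the E-box) and TGACGT (CRE). Cdkn1a has 2 annotated starts, and its second window is shown.
Cdkn1a, chr17:29093519-29093818, plus strand: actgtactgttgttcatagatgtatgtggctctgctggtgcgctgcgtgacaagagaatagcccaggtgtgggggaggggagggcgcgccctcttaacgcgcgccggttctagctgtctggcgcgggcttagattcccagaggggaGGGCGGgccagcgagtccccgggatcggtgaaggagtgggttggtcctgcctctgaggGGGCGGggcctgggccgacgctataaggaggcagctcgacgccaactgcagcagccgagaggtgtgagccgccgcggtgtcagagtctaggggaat
Cdkn2b, chr4:89310983-89311282, minus strand: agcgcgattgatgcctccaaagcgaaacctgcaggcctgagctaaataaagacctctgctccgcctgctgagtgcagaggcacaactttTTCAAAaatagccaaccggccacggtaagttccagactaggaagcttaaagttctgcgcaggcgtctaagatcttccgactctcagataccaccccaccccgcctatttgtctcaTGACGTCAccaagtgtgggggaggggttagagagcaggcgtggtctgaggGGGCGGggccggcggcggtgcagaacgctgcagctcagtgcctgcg
Cdkn2c, chr4:109666707-109667006, minus strand: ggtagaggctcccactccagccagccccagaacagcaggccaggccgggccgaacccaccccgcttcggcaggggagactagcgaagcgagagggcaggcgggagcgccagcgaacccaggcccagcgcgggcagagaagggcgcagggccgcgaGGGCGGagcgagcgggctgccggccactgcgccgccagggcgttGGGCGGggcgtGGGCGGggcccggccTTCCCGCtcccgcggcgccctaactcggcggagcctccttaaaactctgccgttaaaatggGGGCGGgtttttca
Cdkn3, chr14:46760291-46760590, plus strand: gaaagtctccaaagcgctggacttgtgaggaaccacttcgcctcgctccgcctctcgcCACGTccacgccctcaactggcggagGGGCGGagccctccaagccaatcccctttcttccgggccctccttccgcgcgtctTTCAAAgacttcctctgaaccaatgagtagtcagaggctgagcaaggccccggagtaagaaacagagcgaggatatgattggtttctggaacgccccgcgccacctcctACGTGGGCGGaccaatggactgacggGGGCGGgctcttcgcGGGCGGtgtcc

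In capitals, the Cdkn1a window holds 2 copies of GGGCGG and no other searched motif, and the first Cdkn1a window, not shown, holds none. Cdkn2b holds the CHR letters on the opposite strand, the CRE letters read on both strands at overlapping positions, and 1 copy of GGGCGG. The Cdkn2c window holds TTCCCGC starting 25 bases before the start site, beside 4 copies of GGGCGG. Cdkn3 holds the CHR letters on the opposite strand, 4 copies of GGGCGG and 2 of the hypoxia response core, one of which runs into a copy of GGGCGG. Among all 32851 windows in the reference, 4.60% hold TTCCCGC, 17.9% the CHR letters, 19.6% the hypoxia response core, 7.51% the CRE letters and 35.7% GGGCGG. Of the 10 inhibitor windows, TTCCCGC was in 2, the shown one of Cdkn2c and that of the upstream start of Cdkn2a, and GGGCGG was in 8. The CHR letters were in 2, those of Cdkn2b and Cdkn3, and the CRE letters in 1, that of Cdkn2b. The hypoxia response core was also in 2, that of Cdkn3 and the second Cdkn2c window. The FOXO letters were in 0 of the 10 windows and in 3.65% of all, TTGGCGC in 0 and in 2.45% of all, and the E-box in 1, the second Cdkn2c window, and in 7.15% of all. GC content was 44% in the second Cdkn2c window and 54.7% to 77% in the other inhibitor windows. The median over all windows was 52.7%, and the part of GC content in these matches was not tested. A match is a description of the sequence and was not tested as a binding site.

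**Figure D2:**
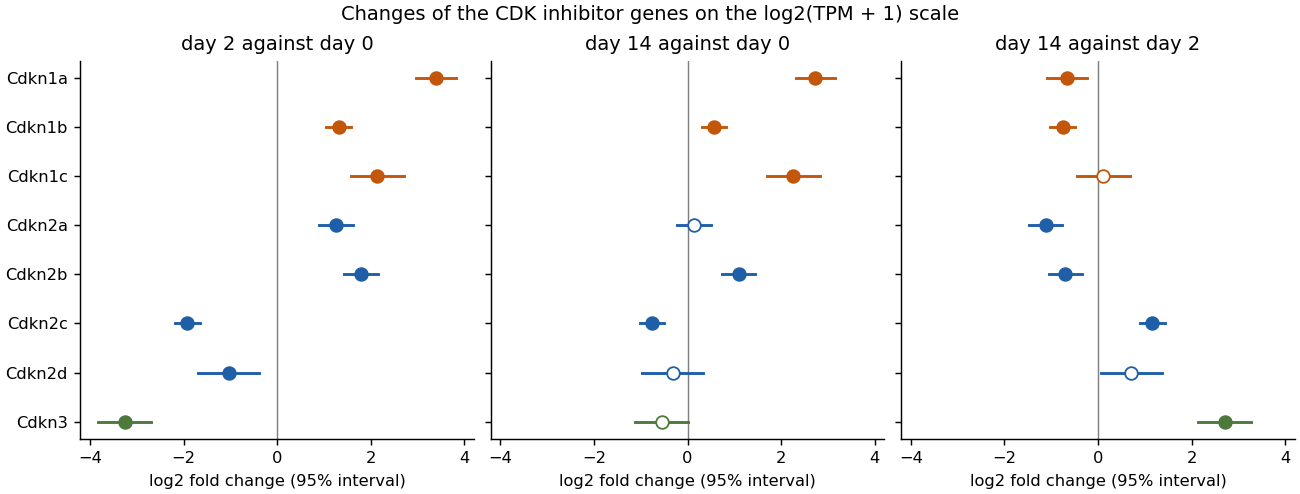
Log2 fold change of each CDK inhibitor gene with its 95% interval in the 3 comparisons, from limma on log2(TPM + 1). Filled points passed an adjusted p of 0.05 and open points did not. At day 2 all 8 intervals clear 0, and at day 14 against day 0 those of Cdkn2a, Cdkn2d and Cdkn3 span it.

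After 14 days some of the inhibitor genes still differed from day 0. The 3 Cip/Kip genes and Cdkn2b were higher than at day 0, Cdkn2c was lower, and Cdkn2a, Cdkn2d and Cdkn3 did not pass. That is 4 higher and 1 lower of 8, where 36.2% of all tested genes were higher and 18.8% lower, 55.1% in all. Under median-of-ratios scaling it was 3 higher and 2 lower, where 24.4% of all genes were higher and 31.8% lower. Both counts of higher genes include Cdkn1c, whose call is not independent of the filter. Quantile normalization gave 22.4% and 26.5% of all genes. Median-of-ratios scaling moved the median log2 fold change of all genes to -0.05, against 0.22 with TPM as deposited.

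Cdkn1a averaged 37.5 ± 6.56 TPM at day 14, against 4.75 ± 0.624 TPM at day 0 (mean ± SD, 3 libraries), a log2 fold change of 2.73 (limma, SE 0.19, adjusted p = 1.76e-05). Cdkn1c averaged 8.25 ± 3.56 TPM at day 14, against 0.855 ± 0.172 TPM at day 0 (mean ± SD, 3 libraries), a log2 fold change of 2.26 (limma, adjusted p = 0.000131), with replicate 1 well above the other day 14 libraries. Cdkn1b had the smallest rise of the family, 0.56 (limma, SE 0.12, adjusted p = 0.00326), and under median-of-ratios scaling it was 0.27 with an adjusted p of 0.0616. Adjusted p-values for Cdkn1b ran from 0.00106 to 0.0616 over the alternatives. Cdkn2b rose by 1.10 (limma, SE 0.16, adjusted p = 0.000477), to 145 ± 15.1 TPM at day 14 against 67.9 ± 14.4 TPM at day 0 (mean ± SD, 3 libraries).

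Cdkn2c stood at 26.6 ± 1.23 TPM at day 14, against 45.7 ± 2.19 TPM at day 0 (mean ± SD, 3 libraries), a fall of 0.76 on the log2 scale that passed (limma, adjusted p = 0.000672). For Cdkn2a the log2 fold change was 0.14 with a 95% interval from -0.22 to 0.50 (limma, adjusted p = 0.49), and its sign turned without day 14 replicate 3 (-0.04) and under median-of-ratios scaling (-0.16). For Cdkn2d it was -0.32 with an interval from -0.97 to 0.33 (limma, adjusted p = 0.366). Cdkn3 was at 26.1 ± 6.27 TPM at day 14, against 38.3 ± 5.35 TPM at day 0 (mean ± SD, 3 libraries), a log2 fold change of -0.55 with an interval from -1.12 to 0.02 (limma, adjusted p = 0.0900). Cdkn3 passed as lower under 5 of the 20 alternatives, at adjusted p from 0.0195 to 0.0456, and the range over all 20 was 0.0195 to 0.248. Those 5 were median-of-ratios scaling, a pseudocount of 5, the fit to the 6 libraries compared, and the fits without day 2 replicate 1 or without day 14 replicate 3.

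**Figure D3:**
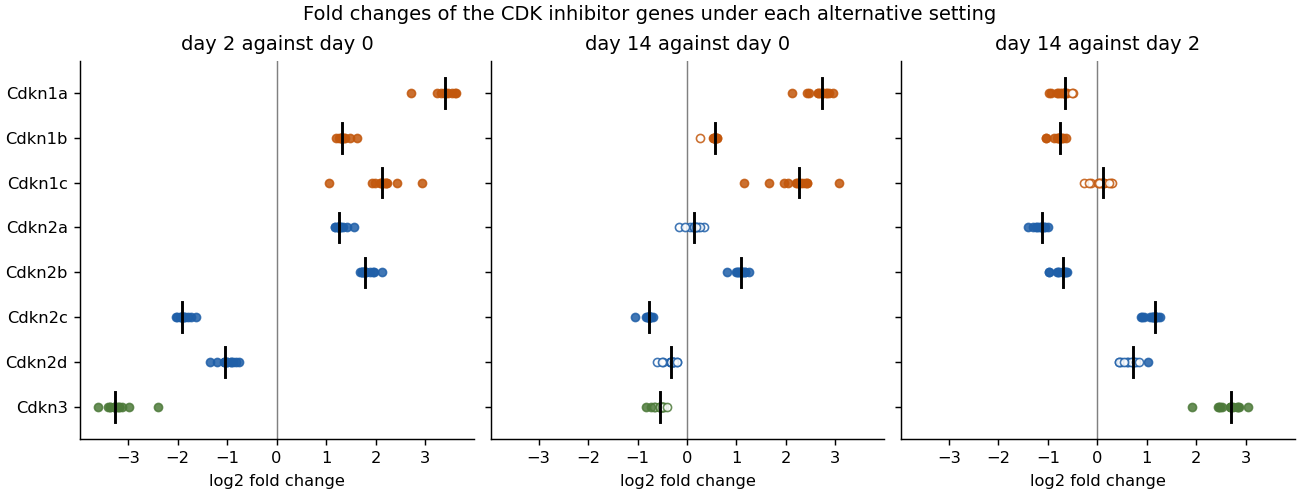
Log2 fold change of each CDK inhibitor gene under the 20 alternative settings (points) beside the value as reported (black bars), in the 3 comparisons. Filled points passed an adjusted p of 0.05. The direction of every call holds across the settings, and points on both sides of 0 occur only for Cdkn2a at day 14 against day 0 and for Cdkn1c at day 14 against day 2, neither of which passed.

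Between day 2 and day 14, a comparison that also tests the difference between both changes from day 0, 6 of the 8 genes passed. Cdkn2c and Cdkn3 were higher at day 14 than at day 2, and Cdkn1a, Cdkn1b, Cdkn2a and Cdkn2b were lower. Thus 2 rose and 4 fell, where 27.4% of all tested genes rose and 3.79% fell, 31.2% in all. The share of all genes that fell depended on the scaling, with 12.4% higher and 11.7% lower under median-of-ratios scaling and 11.6% higher and 15.0% lower under quantile normalization. Under median-of-ratios scaling the median of all genes in this comparison was -0.01, against 0.25 with TPM as deposited, and the inhibitor genes again had 2 higher and 4 lower.

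Each of the 6 lay closer to its day 0 level at day 14 than at day 2, and the share of all tested genes that did so was not counted. Cdkn3 had the largest change, 2.71 on the log2 scale (limma, SE 0.25, adjusted p = 0.000101), with a mean of 26.1 ± 6.27 TPM at day 14 against 3.23 ± 1.27 TPM at day 2 (mean ± SD, 3 libraries). Cdkn2c rose by 1.16 (limma, SE 0.12, adjusted p = 0.000157), and its 3 day 14 values, at 25.8 to 28.03 TPM, lay between those of the other days. Cdkn2a fell by 1.12 (limma, SE 0.16, adjusted p = 0.00112), to 490.3 ± 110.4 TPM at day 14 against 1054 ± 95.6 TPM at day 2 (mean ± SD, 3 libraries). Cdkn1b and Cdkn2b fell as well, with log2 fold changes of -0.75 and -0.70 (limma, adjusted p = 0.00174 and 0.0104). Cdkn1a fell by 0.66 (limma, adjusted p = 0.0260), a call lost without day 2 replicate 1 (adjusted p = 0.0751), day 2 replicate 3 (0.0654) or day 14 replicate 2 (0.0858) and in the fit to the 6 libraries compared (0.0542), with a range over the alternatives of 0.00838 to 0.0858. Cdkn1c did not pass, with a log2 fold change of 0.12 and an interval from -0.45 to 0.68 (limma, adjusted p = 0.754). Cdkn2d did not pass either, with a log2 fold change of 0.71 and an interval from 0.07 to 1.36 before adjustment (limma, adjusted p = 0.0875). It passed without day 2 replicate 1 (adjusted p = 0.0177).

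TPM are per length, so levels of different genes can be set side by side, and sums over a family are sums on that same scale. The INK4 genes were the larger pool throughout. Their summed level was 602 ± 75.5 TPM at day 0, 1324 ± 113 TPM at day 2 and 699 ± 118 TPM at day 14 (mean ± SD, 3 libraries), and Cdkn2a made up 73.4% ± 0.569, 79.6% ± 0.599 and 69.7% ± 3.84 of it on those days. Under median-of-ratios scaling the INK4 sum at day 14 was 609 TPM, against 646 TPM at day 0, so its direction between those days depends on the scaling. The Cip/Kip sum was 57.1 ± 1.38 TPM at day 0, 198 ± 34.2 TPM at day 2 and 122 ± 8.64 TPM at day 14 (mean ± SD, 3 libraries). Cip/Kip genes thus gave 7.55% to 9.63% of the summed TPM of both families in day 0 libraries, 10.8% to 16.2% at day 2 and 12.6% to 17.7% at day 14. Every day 2 and day 14 library stood above every day 0 library in this share, and day 14 overlapped day 2. A common factor per library leaves the share as it is, and the share was not computed under quantile normalization. It counts the whole Cdkn2a row, which also holds ARF transcripts. Without Cdkn2a the INK4 sum averaged 160, 270 and 209 TPM at day 0, day 2 and day 14. That sum stayed above the Cip/Kip sum in every library, most narrowly in day 2 replicate 1 (250 against 237 TPM).

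**Figure D4:**
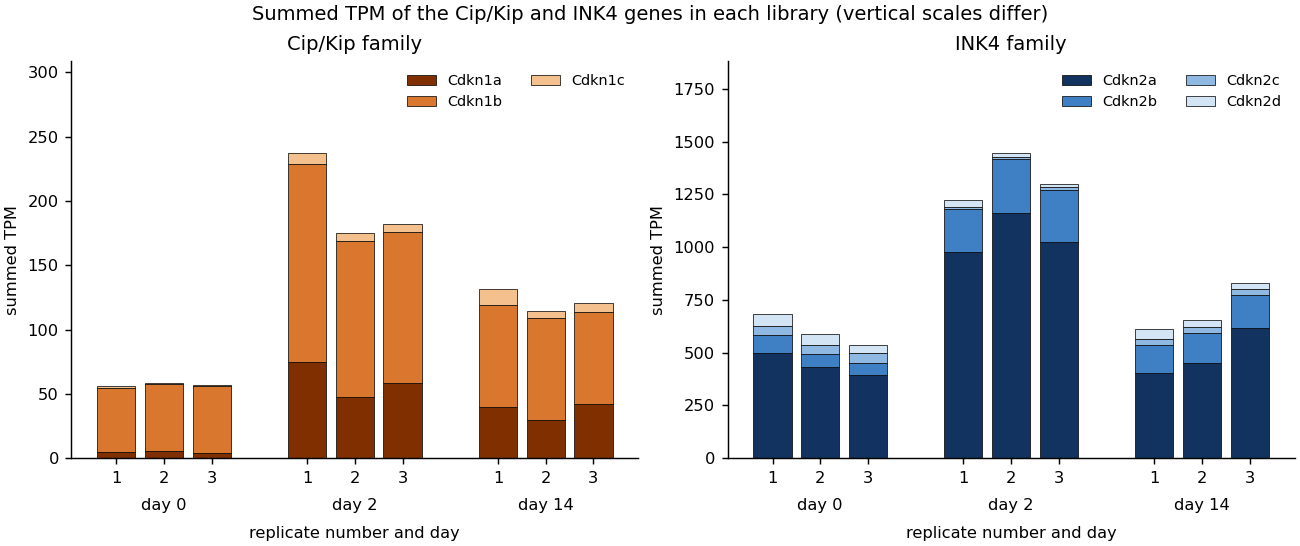
Summed TPM of the Cip/Kip genes (left) and INK4 genes (right) in each library, stacked by gene, with the replicate number under each bar and the days from left to right. The vertical axes differ in scale. Cdkn1b is the largest part of every Cip/Kip bar and Cdkn2a of every INK4 bar, and the part of Cdkn1a is small at day 0 and clear at day 2 and day 14.

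Within the Cip/Kip family, Cdkn1b made up 90.2% ± 1.16 of the summed TPM on day 0, 66.0% ± 2.60 at day 2 and 62.8% ± 5.12 at day 14 (mean ± SD, 3 libraries). The share of Cdkn1a was 8.31% ± 1.003 at day 0, 30.3% ± 2.64 at day 2 and 30.6% ± 4.52 at day 14. Cdkn1c made up 1.50% ± 0.333, 3.64% ± 0.189 and 6.64% ± 2.37 on those days. Within the INK4 family, the share of Cdkn2b was 11.2% ± 1.02 at day 0, 17.8% ± 1.08 at day 2 and 20.9% ± 1.40 at day 14 (mean ± SD, 3 libraries). Cdkn2c and Cdkn2d made up 7.68% ± 1.01 and 7.74% ± 0.772 at day 0 and 0.867% ± 0.154 and 1.79% ± 0.880 at day 2. At day 14 they were at 3.89% ± 0.736 and 5.55% ± 2.03. The gap between the pairs of INK4 genes was thus widest at day 2.

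The order of mean levels put Cdkn2a at the top on each day, followed by Cdkn2b and then Cdkn1b. At day 0 next came Cdkn2d, Cdkn2c, Cdkn3, Cdkn1a and Cdkn1c, with overlapping values between Cdkn1b and Cdkn2d and between Cdkn2d and Cdkn2c. At day 2 the order was Cdkn1a, Cdkn2d, Cdkn2c, Cdkn1c and Cdkn3, and no neighbours overlapped. At day 14 it was Cdkn1a, Cdkn2d, Cdkn2c, Cdkn3 and Cdkn1c, with overlap between Cdkn1a and Cdkn2d and between Cdkn2c and Cdkn3. Cdkn1a moved most in rank, at place 7 of 8 at day 0 and place 4 at day 2 and at day 14.

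The genes whose levels ran most alike over the 9 libraries were named by Pearson's r on the log2(TPM + 1) scale among 7857 genes with a mean of at least 10 TPM. The 9 libraries fall into 3 days, so r mostly reflects the day means, and it is given as a description. For Cdkn1a these were Isoc2b, the RNA demethylase gene Alkbh5 and Bsg, for a chaperone of lactate transporters, with r of 0.996, 0.995 and 0.995. For Cdkn1b they were the corepressor gene Rcor2, the glycogen branching enzyme gene Gbe1 and Eml4 (r of 0.996, 0.993 and 0.988). Rcor2 averaged 13.2 ± 0.940 TPM at day 0, 91.0 ± 21.5 TPM at day 2 and 30.8 ± 2.57 TPM at day 14 (mean ± SD, 3 libraries), a peak like that of Cdkn1b. Zfyve1, Tspyl2 and Magi1 were nearest to Cdkn1c, at 0.996, 0.995 and 0.994.

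Among the INK4 genes, Cdkn2a was nearest to Pla2g12a, the pyruvate kinase gene Pkm and Sertad1, at lower r of 0.964, 0.956 and 0.955. Cdkn2b was nearest to Sars, a seryl-tRNA synthetase gene, to the lactate dehydrogenase gene Ldha and to the noncoding RNA Neat1, at 0.992, 0.989 and 0.983. Cdkn2c was nearest to the separase gene Espl1, to Pimreg and to Mlec, at 0.996, 0.995 and 0.994. Espl1 stood at 27.99 ± 1.62 TPM at day 0, 0.720 ± 0.255 TPM at day 2 and 8.96 ± 1.03 TPM at day 14 (mean ± SD, 3 libraries), a deeper trough than that of Cdkn2c. Cystm1, Ccdc85b and Rab8a ran nearest to Cdkn2d (0.975, 0.974 and 0.965). For Cdkn3 they were Ect2, a regulator of cytokinesis, the phosphatase gene Cdc25c and the replication gene Cdc45, at 0.996, 0.995 and 0.994. Among the inhibitor genes themselves, r was 0.947 between Cdkn2c and Cdkn3, 0.950 between Cdkn1a and Cdkn1c and -0.982 between Cdkn1b and Cdkn2c.

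Genes that act with or on the inhibitors, p53 targets and proliferation markers were followed as lists. Each is given by the number that rose, the number that fell and the median log2 fold change. Over all tested genes that median was -0.02 for day 2 against day 0, and 27.1% rose and 31.9% fell. For day 14 the median of all genes was 0.22 relative to day 0, where 36.2% rose and 18.8% fell. Relative to day 2 it was 0.25, where 27.4% rose and 3.79% fell. Under median-of-ratios scaling the shares of all genes at day 14 against day 0 were 24.4% and 31.8%. Of 12 tested cyclin and CDK genes, the targets of the inhibitors, 0 rose and 10 fell at day 2 against day 0, with a median of -2.12, and quantile normalization gave 1 and 9. The cyclin genes Ccna2 and Ccnb2 fell most, with log2 fold changes of -5.20 and -4.91 (limma, adjusted p = 2.64e-07 and 6.11e-07). By day 14, relative to day 0, 1 rose and 8 fell, with a median of -0.70. The one that rose was the D-type cyclin gene Ccnd2, a partner of CDK4 and CDK6, at 269 ± 44.9 TPM at day 14, against 82.7 ± 3.99 TPM at day 0 (mean ± SD, 3 libraries, limma, adjusted p = 0.000134). Cdk4, the main INK4 target, was at 324 ± 48.8 TPM at day 2, against 474 ± 13.9 TPM at day 0 (mean ± SD, 3 libraries), a fall of 0.56 on the log2 scale (limma, adjusted p = 0.00212) that was lost under quantile normalization (-0.09, adjusted p = 0.413). Cdk6 did not pass, with a log2 fold change of -0.31 (limma, adjusted p = 0.0971), but passed under median-of-ratios scaling (-0.32, adjusted p = 0.0314).

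Proliferation markers fell in 8 of 8 cases at day 2 and 8 of 8 at day 14 against day 0, with medians of -4.24 and -1.33, and rose in 8 of 8 at day 14 against day 2, with a median of 2.83. Birc5 and Rrm2 led at day 2, with log2 fold changes of -5.34 and -5.03. Cdkn2c and Cdkn3 fell with them at day 2 and were, like them, higher at day 14 than at day 2. Cdkn1a, Cdkn1b, Cdkn2a and Cdkn2b went the other way in both comparisons, and the part of a change in proliferation in these results was not tested. Of 8 genes listed for adding or removing phosphate on CDKs, not all of them enzyme genes, 0 rose and 5 fell at day 2. The median was -1.61, and the phosphatase genes Cdc25c (-2.99) and Cdc25b (-2.85) fell most. Cdk7, Ccnh and Mnat1 did not pass with TPM as deposited, and 1 gene of the list rose without the 20 most abundant rows. For day 14 relative to day 0, 0 rose and 4 fell (2 rose without those rows).

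Of the 11 pocket protein and E2F genes, through which the inhibitors act on transcription, 1 rose and 8 fell at day 2, with a median of -1.25, and 2 rose and 5 fell at day 14 against day 0, with a median of -0.47. The one that rose at day 2 was Rbl2, a pocket protein of non-dividing cells, with 24.4 ± 3.95 TPM at day 2 and 9.02 ± 0.658 TPM at day 0 (mean ± SD, 3 libraries, limma, adjusted p = 0.000161), while the repressor genes E2f8 and E2f7 fell (-4.23 and -2.98). E2f8 averaged 0.476 ± 0.0787 TPM at day 2 (mean ± SD, 3 libraries). It passed the filter only through day 0 and day 14, so its call is not independent of the filter. At day 2 this list had 1 and 9 under median-of-ratios scaling, 1 and 7 under quantile normalization and 2 and 7 without the 20 most abundant rows. At day 14 against day 0 the same settings gave 1 and 8, 2 and 7, and 2 and 5. Of 15 genes listed for the turnover of the inhibitors through ubiquitin ligases, not all of them ligase parts, 0 rose and 10 fell at day 2, with a median of -0.44. Median-of-ratios scaling gave 1 that rose, and quantile normalization and removal of the 20 most abundant rows gave 3. Relative to day 0, 3 rose and 7 fell at day 14, or 0 and 9 under median-of-ratios scaling. The shares of all genes there were 36.2% and 18.8%, or 24.4% and 31.8% under that scaling. Cdc20 and Dtl fell most (-4.82 and -3.19). Skp2, the subunit that recognises Kip1, stood at 3.58 ± 0.788 TPM at day 2, against 22.8 ± 2.07 TPM at day 0 (mean ± SD, 3 libraries), a fall of 2.39 (limma, adjusted p = 4.53e-06). At day 14 it was at 6.76 ± 1.14 TPM, still below day 0 by 1.62 (limma, adjusted p = 9.48e-05).

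**Figure D5:**
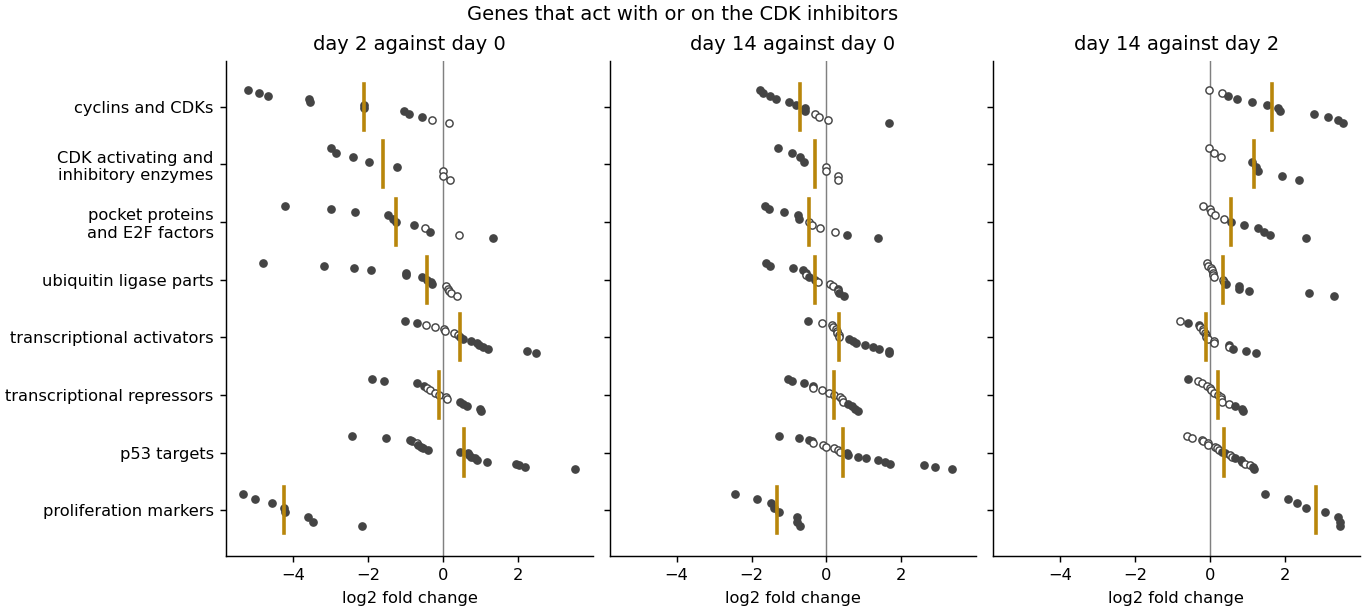
Log2 fold change of each gene in 8 lists, in the 3 comparisons. The lists hold genes that act with or on the CDK inhibitors, p53 targets and proliferation markers. Filled points passed an adjusted p of 0.05, and gold bars are list medians. Proliferation markers and most cyclins and CDKs lie left of 0 at day 2 and stand closer to it at day 14, while p53 targets and transcriptional activators spread on both sides.

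Of 17 listed activators of inhibitor gene transcription, 9 rose and 2 fell at day 2 against day 0, with a median of 0.45, where 27.1% of all genes rose and 31.9% fell. At day 14 against day 0, 8 rose and 1 fell, with a median of 0.35 beside 0.22 over all genes. Under median-of-ratios scaling that median was 0.06 beside -0.05 over all genes, with 7 and 1. At day 14 against day 2 they had 4 and 2, or 2 and 7 under median-of-ratios scaling and 3 and 10 under quantile normalization. The shares of all genes in that comparison were 27.4% and 3.79%, or 12.4% and 11.7% and then 11.6% and 15.0% under those scalings. Foxo3, which activates Cdkn1b when growth factor signalling is low, averaged 42.1 ± 17.1 TPM at day 2 and 6.37 ± 0.768 TPM at day 0 (mean ± SD, 3 libraries, limma, adjusted p = 7.92e-05). Kdm6b, a demethylase that acts at the Cdkn2a locus, rose by 2.25 (limma, adjusted p = 5.77e-07). Trp53 fell by 1.01, to 118 ± 15.0 TPM at day 2 against 238 ± 6.94 TPM at day 0 (mean ± SD, 3 libraries, limma, adjusted p = 9.2e-05).

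Repressors gave 5 that rose and 4 that fell of 15 at day 2, with a median of -0.09, shares close to those of all genes (27.1% and 31.9%). Day 14 against day 0 gave 4 and 4, or 3 and 6 under median-of-ratios scaling and quantile normalization and 6 and 4 without the 20 most abundant rows. The shares of all genes there were 36.2% and 18.8% as deposited, 24.4% and 31.8% under median-of-ratios scaling and 22.4% and 26.5% under quantile normalization. Without those rows they were 39.8% and 17.7%. Among the repressors Id1 and the Polycomb methyltransferase gene Ezh2 fell at day 2 (-1.90 and -1.58), and the Polycomb gene Cbx8 rose by 1.01. Of 20 tested p53 targets other than the inhibitors, 11 rose and 8 fell at day 2, with a median of 0.56. Of all genes, 27.1% rose and 31.9% fell at day 2. At day 14 against day 0, 10 targets rose and 4 fell, with a median of 0.45, beside 36.2% and 18.8% of all genes. Under median-of-ratios scaling it was 8 and 6 with a median of 0.18, and under quantile normalization 9 and 5 with a median of 0.24. Trp53inp1 rose at day 2 by 3.53 and Aen fell by 2.43. Trp53inp1 averaged 0.524 ± 0.231 TPM at day 0 (mean ± SD, 3 libraries). It passed the filter only through day 2 and day 14, so its call is not independent of the filter. The counts of targets that rose include it. The part of p53 in the rise of Cdkn1a was not tested.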

How the data were processed

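The 9 samples of 6620c1 cells, 3 for each day, were profiled by RNA sequencing. Per the labels, RNA came from a Qiagen kit and Novogene built the libraries. Salmon is the tool named in the submitters' processing notes, with no version there, and neither build nor annotation is given in the sources used here. The values the authors deposited are TPM for each gene. The WT in the column names is not explained.

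From these, log2(TPM + 1) was computed. Rows with at least 1 TPM in at least 3 libraries, 12693 of 24493, were fitted with a mean for each day in limma 3.58.1 (R 4.3.3, eBayes with trend). P-values were two-sided and adjusted over every tested gene (Benjamini-Hochberg). The fit was also run on simulated data with independent noise for each gene and few genes changed. Those data held no shift in library composition, so they do not show how the calls fare under one. Alternatives changed the pseudocount, the filter, the scaling, the variance model, the libraries fitted and the replicate block. The replicate numbers were not shown to pair the samples, and no label says that they do. GENCODE M21 has a gene on the other strand overlapping Cdkn1a and another overlapping Cdkn1c. Neither is a row of the table, and it is not stated whether quantification used strand.

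The inhibitor genes and the lists were chosen with earlier results of these data known. Named genes are the 8 inhibitors, for each list the pair with the largest change at day 2 among those past the threshold and the gene that changed most in the other direction, and for each inhibitor the 3 genes of highest r. Predicted genes, microRNA and small nucleolar RNA rows were left out of that search. Skp2, Ccnd2, Cdk4 and Cdk6 were named after their values were seen. Protein sequences were not used here. Plots were made in matplotlib 3.10.9 under Python 3.11.15.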

Additional observations from a re-analysis of the deposited data

Results flagged for a closer look

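For 6 of the 8 inhibitor genes the change from day 0 differed between day 14 and day 2, by the limma test of day 14 against day 2, which 31.2% of all tested genes passed. The difference on the log2 scale was -0.66 for Cdkn1a, -0.75 for Cdkn1b, -1.12 for Cdkn2a and -0.70 for Cdkn2b. It was 1.16 for Cdkn2c and 2.71 for Cdkn3. All 6 differences point back towards the day 0 level, and both comparisons with day 0 share its libraries. The day 2 libraries enter both the change at day 2 and this test, so spread in them alone leans towards such a return. The share of all tested genes that point back was not counted. Proliferation markers moved over the same libraries, with a median of 2.83 at day 14 against day 2, and their part in these differences was not tested.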

How the results depend on the processing

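Each comparison was recomputed under 20 alternatives, and 5 inhibitor genes that rose and 3 that fell at day 2 against day 0 were found under each of them. At day 14 against day 0 the number that fell was 2 in place of 1 with a pseudocount of 5, under median-of-ratios scaling and in the fit to the 6 libraries compared, and 1 to 2 when a library was left out. In each of these the added gene was Cdkn3. The numbers at day 14 against day 2 when a library was left out were 2 to 3 that rose and 3 to 4 that fell. Signs turned for genes that had not passed. Cdkn2a at day 14 against day 0 was -0.16 under median-of-ratios scaling and ran from -0.0393 (without day 14 replicate 3) to 0.261 when a library was left out. Cdkn1c at day 14 against day 2 was -0.13 under median-of-ratios scaling and -0.27 under quantile normalization, and ran from -0.18 (without day 14 replicate 1) to 0.294 when a library was left out. The cause was not tested. With the replicate number as a block, Cdkn2d passed at day 14 against day 2 (0.71, adjusted p = 0.0107), and the numbers that rose and fell among the inhibitor genes were otherwise as reported. Same-numbered samples correlated at -0.0709 to 0.318 once day means were taken out, and 4 of 9 samples correlated best with their own number.

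Counts over all genes moved more. At day 2 against day 0 they were 3438 that rose and 4046 that fell, or 4563 and 3457 without the 20 most abundant rows. At day 14 against day 0 they were 4601 and 2389, or 3085 and 4027 under median-of-ratios scaling and 2843 and 3363 under quantile normalization. At day 14 against day 2 they were 3474 and 481, or 1572 and 1485 under median-of-ratios scaling, 1470 and 1905 under quantile normalization, 2590 and 818 without the 20 most abundant rows, with 301 that fell in the fit to the 6 libraries. When a library was left out, the lower count in that comparison was 318 to 460. Under median-of-ratios scaling the Cip/Kip sum was 107 TPM at day 14, against 61.2 TPM at day 0. The INK4 sum was then 609 TPM at day 14, against 646 TPM at day 0. Without the 20 most abundant rows the Cip/Kip sum was 71.9, 280.3 and 159 TPM at day 0, day 2 and day 14, and the INK4 sum was 759, 1873 and 907 TPM. Depth is unknown, so counting error could not be given, and Cdkn1c at day 0 is the value it would limit most.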

Other observations

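Inhibitor mRNA can be set against the mRNA of the kinases it acts on within each library. Such a ratio does not change with a common factor per library, and it was not computed under quantile normalization. These ratios were chosen after the values were seen and are given without a test. The summed INK4 TPM over the summed TPM of Cdk4 and Cdk6 was 1.23 ± 0.191 at day 0, 3.95 ± 0.243 at day 2 and 2.09 ± 0.269 at day 14 (mean ± SD, 3 libraries). The ranges of the 3 days did not overlap, at 1.07 to 1.44, 3.69 to 4.17 and 1.91 to 2.40. Without Cdkn2a, whose row also holds ARF transcripts, the ratio was 0.328 ± 0.0573 at day 0, 0.808 ± 0.0653 at day 2 and 0.627 ± 0.0180 at day 14. The summed Cip/Kip TPM over that of Cdk1 and Cdk2 was 0.449 ± 0.0414 at day 0, 8.91 ± 1.84 at day 2 and 1.64 ± 0.210 at day 14 (mean ± SD, 3 libraries). The kinase part of these ratios moved too. Mean Cdk1 was 95.3, 7.05 and 53.7 TPM at day 0, day 2 and day 14, and mean Cdk2 32.8, 15.3 and 21.8 TPM. Mean Cdk4 was 474, 324 and 317 TPM. The ratios therefore do not reflect the inhibitor genes alone. Both kinds of ratio were highest at day 2 and stood above day 0 in every day 14 library, also where Cdkn2a itself did not pass at day 14 against day 0. Protein levels and complexes were not measured.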
